A study of Mus musculus with 2 samples.

Results

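The kallikrein-related peptidases of the epidermis, Klk5, Klk6, Klk7, Klk8, Klk10, Klk11, Klk13 and Klk14, and their inhibitor gene Spink5 were examined over skin depth in 2 sections of psoriasis-like mouse skin. The members were taken by their gene symbols, each of which had 1 entry in the deposited matrices, and made up 9 of 19465 genes measured. Spatial transcriptome libraries had been made with the probe-based Visium CytAssist assay, which captures RNA of formalin-fixed tissue on a grid of barcoded spots and counts unique molecular identifiers (UMIs) per gene and spot. The section called S1pr2fl/fl (S1pr2 f/f in the labels) carried floxed alleles of S1pr2, a receptor for sphingosine-1-phosphate, without Cre. The section called S1pr2fl/fl K14-Cre (S1pr2 f/f K14-Cre) carried the same floxed alleles with Cre under the keratin 14 promoter, which deletes S1pr2 in keratinocytes of the epidermis and of hair and gland epithelium but not in immune cells, fibroblasts or muscle. Mice were 8 weeks old, and the depilated back skin of both had received 62.5 mg of 5% imiquimod (IMQ) cream daily for 7 days. With 1 section per genotype and no untreated skin, no test between genotypes was possible, and every interval given is a 95% interval that covers counting error only. Differences between the sections are therefore differences between 2 pieces of tissue.

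Kallikreins are secreted serine proteases made as inactive precursors in the upper living layers of the epidermis. In the stratum corneum they activate one another and cut the corneodesmosomes that hold corneocytes together, so that dead cells are shed. Spink5 encodes LEKTI, a protein cut into fragments that inhibit kallikreins 5, 7 and 14, and its loss causes Netherton syndrome, a disease of premature shedding. The transcripts describe supply of enzyme and inhibitor, not protease activity.

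The S1pr2fl/fl section held 1282 spots under tissue with 5315351 UMIs, and the S1pr2fl/fl K14-Cre section held 981 spots with 2845826 UMIs. Spots were grouped by expression with the 9 members and their pathway genes left out, and the group with most keratinocyte markers in each section was taken as its epidermal spots. These were 210 spots (16.4%) with a median of 3726.5 UMIs in S1pr2fl/fl, where 11 of 15 keratinocyte markers were enriched, and 146 spots (14.9%) with a median of 2313 UMIs in S1pr2fl/fl K14-Cre, where 15 of 15 were. In both, the leading genes were Sprr2i and Lce3a. Levels below are UMIs summed over a region per 1000000 UMIs of all genes in that region (CPM). A spot holds several cells, so that fewer cells of a type and less RNA per cell cannot be told apart. S1pr2 itself was sparse, with 13 UMIs in the epidermal spots of S1pr2fl/fl and 5 in those of S1pr2fl/fl K14-Cre, too few to check the deletion.

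The 8 kallikrein genes lie side by side on chromosome 7 (chr7:43680880-43851181 in build GRCm38.p6, which is mm10), a stretch of 170 kb whose 10 coding genes are all kallikreins, the other two being Klk9 and Klk12. Klk14 (chr7:43680880-43695536) marks one end and Klk5 (chr7:43834157-43851181) the other. Spink5 lies on another chromosome. The 250 bases upstream of the annotated start of the 2 members below are from the RefSeq annotation of that build and on the plus strand. They are shown because both genes hold more than 1 copy of the GT box and were lower, relative to all UMIs, in K14-Cre epidermal spots. Capitals mark GGGTGG or its complement CCACCC, the core of the GT box that Krüppel-like factors can bind.
Klk13 (chr7:43712317-43712566): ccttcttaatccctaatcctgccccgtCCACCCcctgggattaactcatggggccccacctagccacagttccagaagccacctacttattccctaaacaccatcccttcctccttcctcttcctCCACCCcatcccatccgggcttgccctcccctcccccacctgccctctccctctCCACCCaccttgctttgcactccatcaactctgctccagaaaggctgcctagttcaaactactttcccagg
Klk7 (chr7:43811044-43811293): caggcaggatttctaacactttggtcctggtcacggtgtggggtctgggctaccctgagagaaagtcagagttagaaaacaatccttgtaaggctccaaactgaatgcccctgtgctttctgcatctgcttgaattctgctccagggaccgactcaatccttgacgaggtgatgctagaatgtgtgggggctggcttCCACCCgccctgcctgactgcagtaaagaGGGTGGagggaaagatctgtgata
Windows of 250 bases before to 50 after the start were searched on both strands. GGGTGG occurred in 6 of 10 windows of the 8 kallikreins, those of Klk5, Klk7, Klk10, Klk11, Klk13 and Klk14, and in 31.5% of all 32851 windows. Klk8 and Klk6, the members with the largest and the smallest difference between the sections, had no match, and Klk14, the member with a higher level, had one. This motif was picked after the windows had been read, so the count is a description. A link between the motif and the levels was not tested. TATAAA, found in 13.6% of all windows, TGANTCA, the AP-1 motif (7.81%), and AACCNGTT, bound by grainyhead-like factors (2.09%), had no match in the 10 kallikrein windows.

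The first question was where in the skin the members were measured. All 8 kallikreins together were highest in the epidermal spots of both sections and lower in each band further from them. In S1pr2fl/fl the summed kallikreins stood at 8348 CPM in epidermal spots, 4267 at 1 step, 2915 at 2 steps, 2090 at 3 to 4 steps and 1306 at 5 or more steps. The corresponding values in S1pr2fl/fl K14-Cre were 5119, 2655, 2216, 521 and 234 CPM. Epidermal spots thus exceeded spots 3 or more steps away by 2.31 on the log2 scale (interval 2.26 to 2.37), or 4.97-fold, in S1pr2fl/fl and by 3.83 (3.70 to 3.96), or 14.2-fold, in S1pr2fl/fl K14-Cre. The 15 keratinocyte markers had log2 differences of 2.30 (2.28 to 2.31) and 4.36 (4.32 to 4.40). The summed kallikreins were thus about as steep as these markers in S1pr2fl/fl and less steep in S1pr2fl/fl K14-Cre. The same markers named the epidermal spots, and the members were left out of that grouping, so this comparison is a description. In S1pr2fl/fl the intervals of Klk5 (2.99, interval 2.64 to 3.35), Klk13, Klk8 and Klk7 lay above that of the summed markers. Single keratinocyte genes varied widely there, with 1.09 for Krt5, 2.78 (2.74 to 2.82) for Krt10 and 2.83 (2.74 to 2.92) for Lor. Klk13, Klk8 and Klk7, at 2.63, 2.60 and 2.54, lay below Krt10 and Lor, so such steepness is not particular to the members. Some 19433 CPM of keratinocyte markers remained 5 or more steps away in S1pr2fl/fl against 2546 in S1pr2fl/fl K14-Cre, and the part of this RNA in the deep kallikrein levels was not tested.

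**Figure D1:**
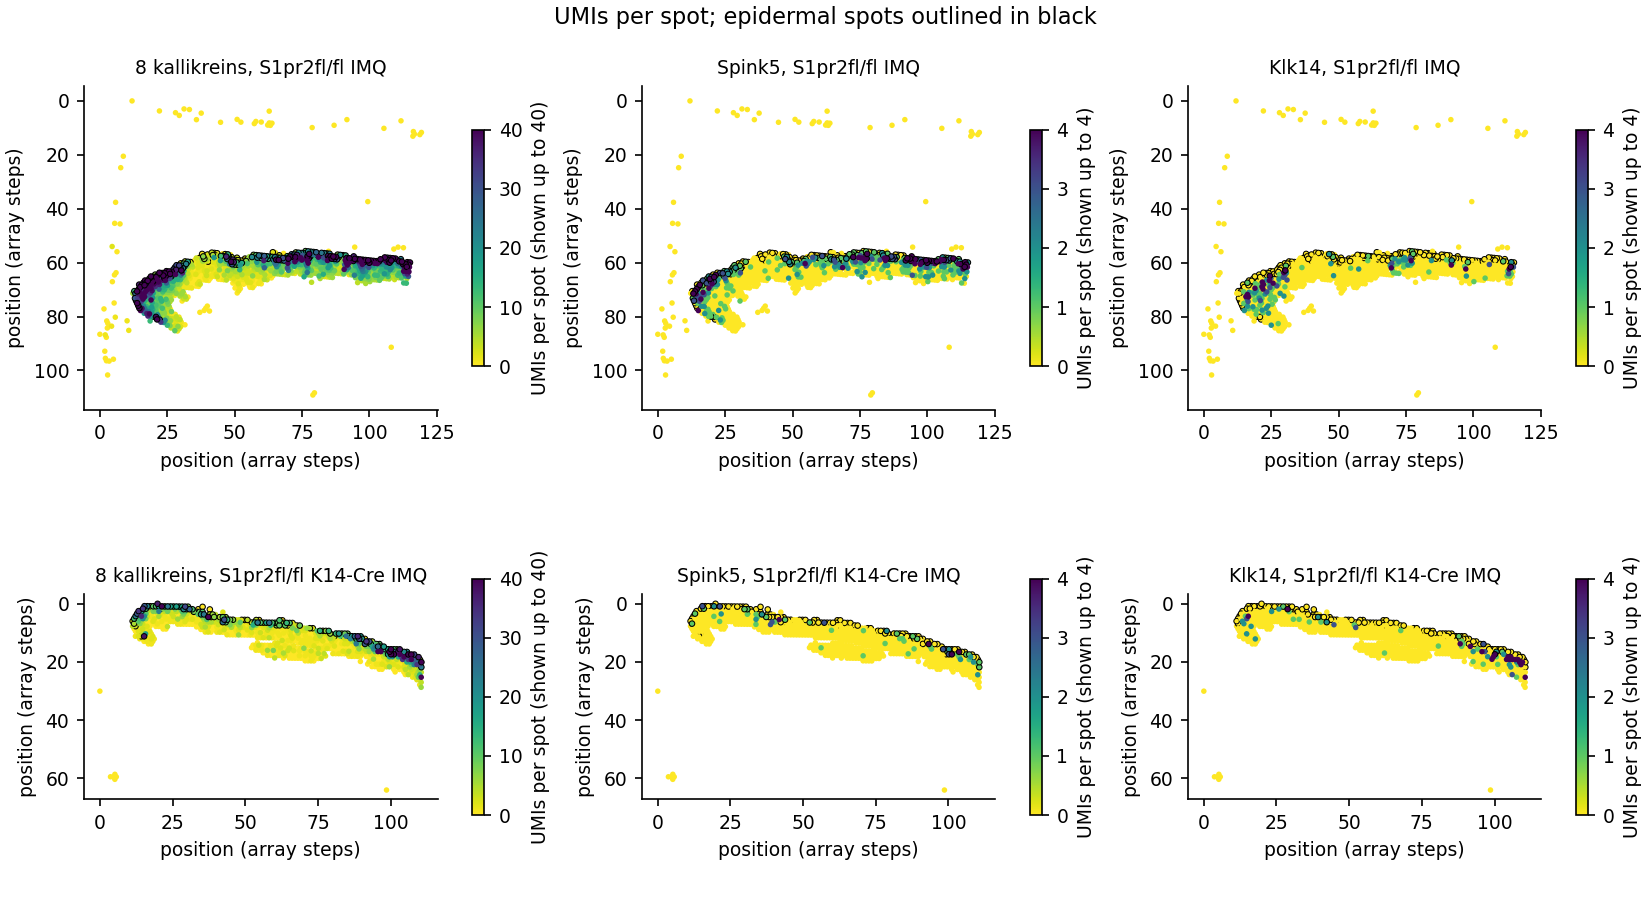
Maps of the 2 sections (S1pr2fl/fl above, S1pr2fl/fl K14-Cre below), with both axes in array steps and each dot 1 spot under tissue. Colour gives UMIs per spot of the 8 summed kallikreins, of Spink5 and of Klk14, capped at 40, 4 and 4 UMIs, and the epidermal spots are outlined. A few spots lie apart from the tissue strip. Kallikreins and Spink5 follow the outlined strip, whereas Klk14 lies mostly off it and near 1 end of each section.

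Spink5 followed the proteases over depth. In S1pr2fl/fl it went from 311 CPM in epidermal spots through 185, 135 and 71.8 to 38.1 CPM at 5 or more steps. The K14-Cre section went from 118 CPM through 38.2, 51.7 and 12.1 to 4.26 CPM. Its log2 difference between epidermal spots and spots 3 or more steps away was 2.52 (2.23 to 2.82) in S1pr2fl/fl and 3.93 (3.04 to 4.93) in S1pr2fl/fl K14-Cre, the latter resting on 53 epidermal UMIs.

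Individually, 8 of 9 members were at least 2-fold higher in epidermal spots than 3 or more steps away in S1pr2fl/fl, where 7.16% of 12261 genes were, and 9 of 9 were in S1pr2fl/fl K14-Cre, where 20.6% of 12519 genes were. In the latter, Klk8 (2.00-fold, interval 1.25 to 3.15) and Klk14 (2.86-fold, 1.70 to 4.76) had intervals that reached below 2-fold. Klk6, a trypsin-like protease, gave by far the most UMIs: 4743, 2516, 1635, 1181 and 749.8 CPM from epidermis to depth in S1pr2fl/fl, and 3744, 1979, 1372, 314 and 145 CPM in S1pr2fl/fl K14-Cre. Because the probes per gene are not known here, this does not rank Klk6 above the other members as RNA. Klk7, the chymotrypsin-like enzyme that cuts corneodesmosin, went from 1103 to 131 CPM in S1pr2fl/fl and from 486 to 18.1 CPM in S1pr2fl/fl K14-Cre. Klk5, the trypsin-like enzyme that activates Klk7 and Klk14, went from 275 to 19.4 CPM and from 53.5 to 3.19 CPM. The other members with this profile were Klk10, Klk11 and Klk13, with log2 differences of 1.71, 2.22 and 2.63 in S1pr2fl/fl and 3.92, 3.91 and 3.80 in S1pr2fl/fl K14-Cre.

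Klk8 had a steep profile in S1pr2fl/fl and a shallow one in S1pr2fl/fl K14-Cre. Its levels from epidermis to depth were 441, 246, 169, 93.2 and 53.8 CPM in S1pr2fl/fl, a log2 difference of 2.60. The K14-Cre section had 69.1, 90.0, 45.9, 45.8 and 25.5 CPM, a log2 difference of 1.00 (0.32 to 1.66). This interval includes the log2 difference of the chemosensory receptor genes in that section, 0.87 (0.82 to 0.93). Those genes, which skin should hardly express, serve below as a measure of stray counts. The part of stray counts in the Klk8 profile was not tested. Of the Klk8 UMIs of a section, 44.8% lay in epidermal spots of S1pr2fl/fl and 22.5% in those of S1pr2fl/fl K14-Cre.

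**Figure D2:**
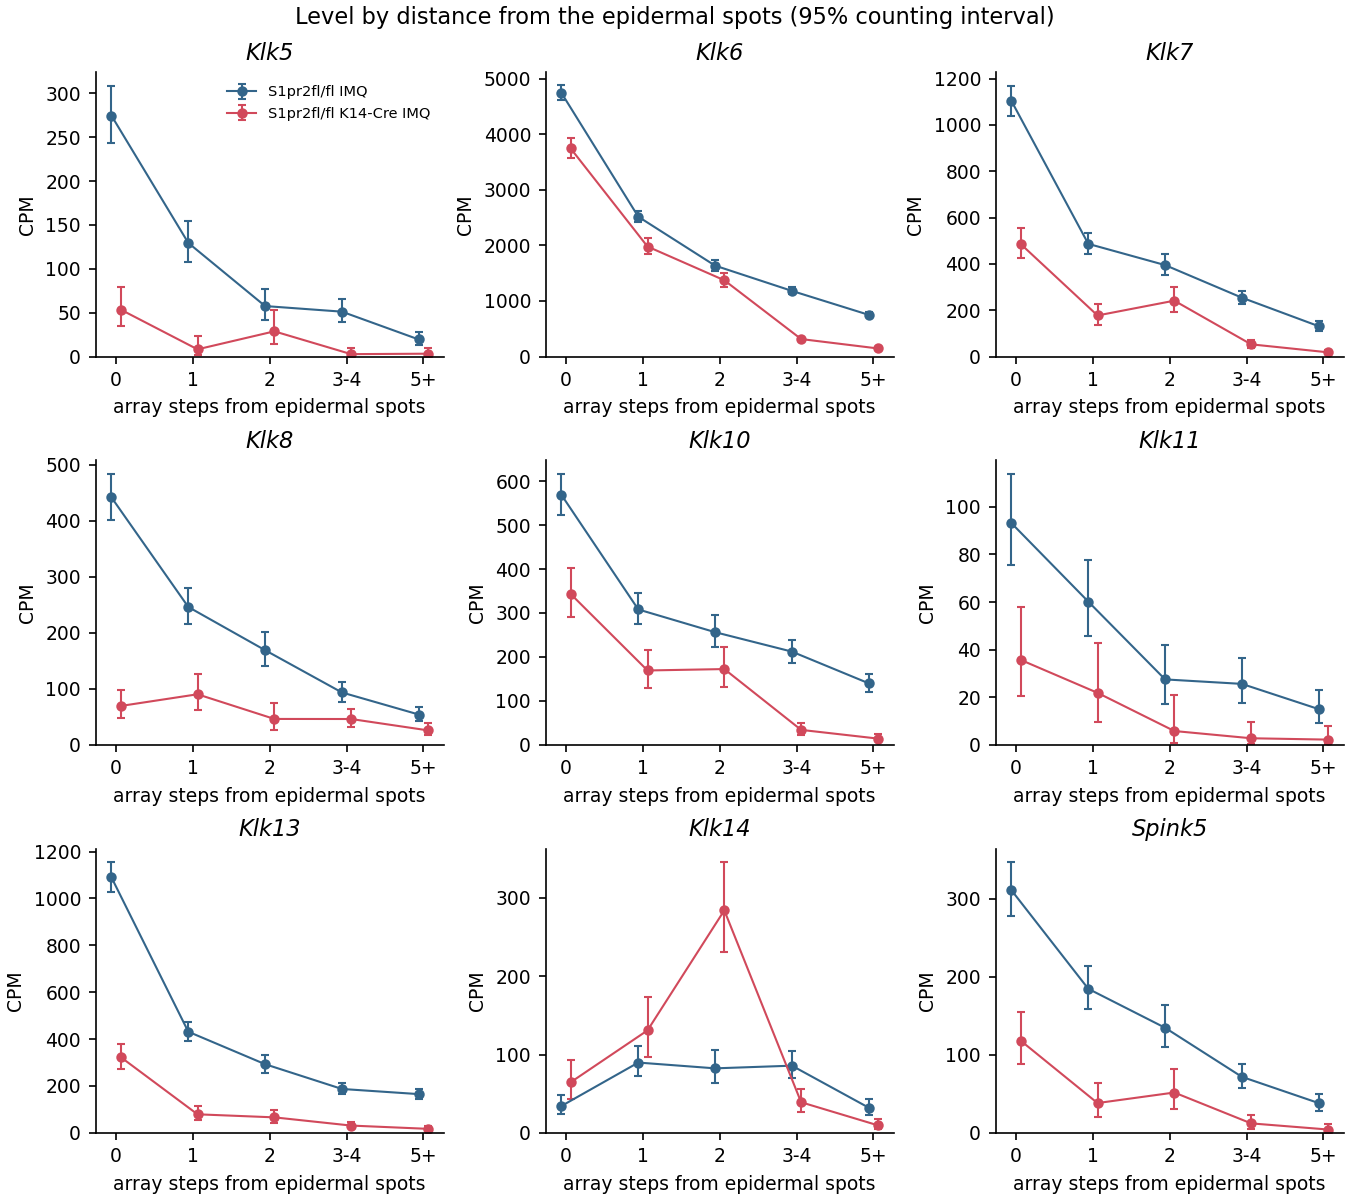
CPM of each member (linear axes from 0) against array steps from the nearest epidermal spot, with points for S1pr2fl/fl and S1pr2fl/fl K14-Cre and bars for the 95% counting interval. Most members are highest at 0 steps in both sections. Klk14 is highest at 1 step in S1pr2fl/fl (89.7 CPM) and at 2 steps in S1pr2fl/fl K14-Cre (284 CPM), and Klk8 is shallow in S1pr2fl/fl K14-Cre.

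Klk14, a trypsin-like protease that can activate other kallikreins, was the member placed differently. In S1pr2fl/fl its levels were 34.3 CPM in epidermal spots, then 89.7, 82.4, 85.8 and 32.1 CPM with distance. In S1pr2fl/fl K14-Cre they were 64.6, 131, 284, 39.1 and 9.58 CPM. Of its UMIs, 10.5% and 13.6% lay in epidermal spots, whereas for the other members these shares were 38.1% to 51.9% and, Klk8 apart, 49.0% to 61.4%. Sebaceous gland markers also lay below the epidermal spots, at 348, 1510, 2727, 2155 and 1899 CPM in S1pr2fl/fl and at 611, 1726, 3631, 2030 and 1384 CPM in S1pr2fl/fl K14-Cre, where Awat2, 1 of these 7 markers, had no UMI in epidermal spots. The highest Klk14 level of any spot group was 347 CPM, in 127 spots of S1pr2fl/fl K14-Cre led by Fa2h, Cers4, Spock3 and Far2, genes of which several serve lipid synthesis. Klk14 stood itself among the 10 leading genes of that group, so this level is a description. In S1pr2fl/fl the highest levels were 114 CPM in 160 spots where all 7 fibroblast markers were enriched and 92.5 CPM in 253 spots led by Serpina3b, Cyp2j12 and Mc5r. The 160 spots were also enriched for 5 of 7 fat, 3 of 7 hair and 3 of 7 immune markers. The 253 spots were enriched for 4 of 7 sebaceous gland and 1 of 7 hair markers. The part of gland or hair cells in the Klk14 signal was not tested.

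Klk14 was also uneven along the sections. Each section was cut into 4 segments that held about equal numbers of epidermal spots. Segment 1 of S1pr2fl/fl held 176 of 333 Klk14 UMIs (52.9%) but 32.3% of all UMIs, and segment 4 of S1pr2fl/fl K14-Cre held 151 of 214 (70.6%) but 35.7% of all UMIs. Other members were uneven too. In segment 4 of S1pr2fl/fl K14-Cre, Klk5 had 59.5% of its UMIs, Klk7 56.5%, Klk11 53.3% and Klk10 50.6%. Klk6, Spink5 and Klk8 had 43.3%, 41.8% and 39.1% there, and Klk13 29.7%. In segment 1 of S1pr2fl/fl, Klk10 had 43.5% and Klk7 40.7%, whereas Klk5, Klk8, Klk11, Klk13 and Spink5 lay below 32.3%. Sebaceous markers had 36.8% of their UMIs in segment 1 of S1pr2fl/fl and 26.8% in segment 4 of S1pr2fl/fl K14-Cre. Hair markers had 39.5% and 39.8%, on 123 and 78 UMIs in these segments. Without segment 1, Klk14 in S1pr2fl/fl stood at 45.4 CPM in epidermal spots and 26.9 CPM at 3 or more steps, so its lower level in epidermal spots (log2 difference of -0.75, interval -1.32 to -0.21) became a higher one (0.76). Without segment 4, Klk14 in S1pr2fl/fl K14-Cre remained highest at 2 steps, with 168 CPM against 41.8 CPM in epidermal spots.

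The second question was whether the epidermal levels differed between the sections. Relative to all RNA of the epidermal spots, 8 of the 9 members were lower in S1pr2fl/fl K14-Cre, and 6 of them, Klk5, Klk7, Klk8, Klk11, Klk13 and Spink5, were at least 2-fold lower. Of the 8146 genes with at least 20 epidermal UMIs, 13.2% were at least 2-fold lower and 23.5% at least 2-fold higher, the latter with 0 of 9 members. The median log2 difference was -1.35 over the 9 members and 0.23 over all these genes.

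Klk8, a trypsin-like protease, and Klk5 differed most among the members. Klk8 had 450 UMIs (441 CPM) in the epidermal spots of S1pr2fl/fl and 31 (69.1 CPM) in those of S1pr2fl/fl K14-Cre, a log2 difference of -2.68 (-3.25 to -2.15). Along the section its level was 301, 261, 478 and 594 CPM in the 4 segments of S1pr2fl/fl and 52.3, 106, 68.4 and 66.9 CPM in those of S1pr2fl/fl K14-Cre. The ranges did not overlap. Klk5 had 280 UMIs (275 CPM) against 24 (53.5 CPM), a log2 difference of -2.36 (-3.03 to -1.76). Its segments stood at 259, 413, 251 and 274 CPM in S1pr2fl/fl and at 26.2, 75.4, 68.4 and 57.3 CPM in S1pr2fl/fl K14-Cre, again without overlap. Segments of a section share 1 mouse and 1 library and are not replicates. The share of all genes whose segments did not overlap was not taken. The summed 15 keratinocyte markers did not overlap either, at 119448 to 127794 CPM against 60382 to 69344 CPM. The basal list did, at 33405 to 42244 CPM against 25167 to 36843 CPM.

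Klk13, Spink5 and Klk7 were lower as well. Klk13 had 1111 UMIs (1089.5 CPM) against 145 (323 CPM), a log2 difference of -1.75 (-2.01 to -1.50), with segments at 886, 1389.96, 1253 and 1161 CPM against 375, 422, 410.4 and 239 CPM. Spink5 had 317 UMIs (311 CPM) against 53 (118 CPM), a log2 difference of -1.40 (-1.84 to -0.97), with segments at 225, 275, 285 and 411 CPM against 113, 121, 85.5 and 129 CPM. Klk7 had 1125 UMIs (1103 CPM) against 218 (486 CPM), a log2 difference of -1.18 (-1.40 to -0.97), with segments at 1101, 1225, 781 and 1224 CPM against 453, 392, 649.8 and 487 CPM. For all 3 genes every S1pr2fl/fl K14-Cre segment lay below every S1pr2fl/fl segment, as it did for the summed keratinocyte markers. Without the share of all genes with such segments, this is a description and not a trait of the members.

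Klk11, Klk10 and Klk6 were also lower, Klk6 having the smallest difference of the 9 members, and Klk14 had the opposite direction. Klk11, another trypsin-like member, had 95 UMIs (93.2 CPM) against 16 (35.7 CPM), a log2 difference of -1.39 (-2.25 to -0.61), and its segments overlapped, at 13.8 to 137 CPM and 19.1 to 75.4 CPM. Klk10 had 580 UMIs (569 CPM) against 154 (343 CPM), a log2 difference of -0.73 (-0.99 to -0.47). Its segments did not overlap, at 432 to 757 CPM and 241 to 377 CPM. Klk6 had 4836 UMIs (4743 CPM) against 1680 (3744 CPM), a log2 difference of -0.34 (-0.42 to -0.26), and its segments met, at 4400 to 5202 CPM and 3067 to 4421 CPM. Klk14 was the single member with a higher level, 35 UMIs (34.3 CPM) against 29 (64.6 CPM), a log2 difference of 0.91 (0.15 to 1.66), which fell to 0.28 without segment 4 of S1pr2fl/fl K14-Cre, to 0.096 in the 2 uppermost spots of each image column and to 0.13 with a TMM factor, and was 1.87 in the epidermal spots poorest in late genes. The Klk14 segments overlapped fully, at 15.7 to 124 CPM and 17.1 to 90.8 CPM.

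**Figure D3:**
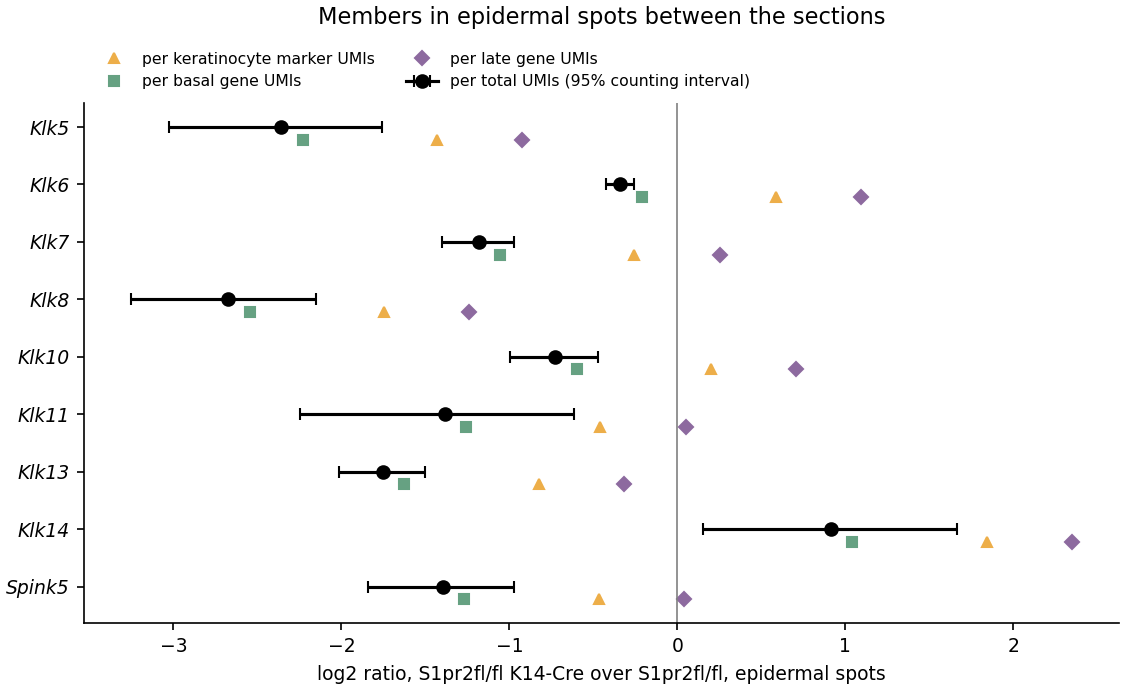
Log2 ratio of epidermal levels, S1pr2fl/fl K14-Cre over S1pr2fl/fl, for each member under 4 scalings: all UMIs of the region, the UMIs of 15 keratinocyte markers, of the basal list and of the late differentiation list. Bars, drawn for the first scaling, are 95% counting intervals. Klk5, Klk8 and Klk13 lie below 0 and Klk14 above 0 under each of the 4, and the other members cross 0.

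The sign of the difference changed with the denominator for 5 of the 9 members, and the epidermal spots differed in their keratinocyte RNA. For Klk11 and Spink5 it changed only to 0.05 and 0.04, values too small to show a direction. No interval was taken for the scaled values. The 15 keratinocyte markers made up 124037 CPM of the epidermal spots in S1pr2fl/fl and 65205 CPM in S1pr2fl/fl K14-Cre. The late differentiation genes, such as Lor and Hrnr, stood at 14221 and 5259 CPM, and the basal genes, such as Krt5 and Itga6, at 36409.5 and 33306 CPM. Krt10, a keratin of suprabasal cells, differed by -2.28 on the log2 scale. Of the basal keratins, Krt5 differed by 0.38 and Krt14 by -0.22. Krt14 made up most of the basal list, with 32077 and 27498 CPM. Of the 6 basal genes, 2 were at least 2-fold higher and 0 at least 2-fold lower, so the basal sum mainly follows Krt14. Of 7 late genes with enough UMIs, 6 were at least 2-fold lower. Among the 15 keratinocyte markers, 9 were at least 2-fold lower and 1 at least 2-fold higher. As sums, muscle markers were higher in the S1pr2fl/fl K14-Cre epidermal spots (634 and 1778 CPM), as were fibroblast markers (2933 and 4189 CPM). Summed immune markers were lower (16839 and 8167 CPM). Gene by gene, 5 of 7 muscle markers were at least 2-fold higher, against 23.5% of all genes. Of 7 fibroblast markers 0 were, and 1 was at least 2-fold lower. Of 5 immune markers with enough UMIs, 1 was at least 2-fold lower, against 13.2% of all genes, so the immune sum does not describe the list as a whole. Per UMI of the basal list, 8 of 9 members remained lower, by 0.21 for Klk6 to 2.55 for Klk8. Per UMI of the keratinocyte markers, Klk6 and Klk10 turned higher, with log2 differences of 0.59 and 0.20, and the sum of the 8 kallikreins went from -0.71 to 0.22. Per UMI of the late list, Klk6, Klk7, Klk10, Klk11 and Spink5 stood at 1.09, 0.25, 0.71, 0.05 and 0.04, and the sum at 0.73. Klk5, Klk8 and Klk13 remained lower under that scaling too, by 0.93, 1.24 and 0.32. Klk6 made up 56.8% of the summed kallikrein UMIs in S1pr2fl/fl and 73.1% in S1pr2fl/fl K14-Cre. Without Klk6, the remaining kallikreins together differed by -1.39 (-1.52 to -1.27) relative to all UMIs. This was lower than the difference of the keratinocyte markers, -0.93 (-0.95 to -0.91). It was close to that of the late list, -1.44 (-1.50 to -1.37).

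Within the epidermal spots the members were followed from spots poor to spots rich in late differentiation genes, in 3 groups of equal size per section. In S1pr2fl/fl the sum of the 8 kallikreins was 7261, 8735 and 9411 CPM in the low, middle and high group. Klk5 stood at 203, 229 and 444 CPM, Klk7 at 877, 1092 and 1453 CPM and Klk8 at 324, 463 and 584 CPM. These 3 genes were thus highest where late genes were most abundant in that section. Klk13 and Spink5, given below, were highest in the high group there too. For Klk8, Klk13 and Spink5 the intervals of the middle and high group overlapped. Klk6, Klk10, Klk11 and Klk14 were not highest in the high group. Klk6 stood at 4135, 5139 and 5087 CPM and Klk10 at 627, 531 and 535 CPM. Klk11 stood at 61.7, 133 and 83.5 CPM and Klk14 at 30.9, 40.9 and 30.3 CPM. In S1pr2fl/fl K14-Cre Klk5 was 58.8, 50.2 and 47.5 CPM and Klk8 was 78.4, 64.5 and 57.0 CPM, with intervals that overlapped across the groups. Klk7 stood at 269.6, 709.7 and 608 CPM and Klk13 at 235, 366 and 437 CPM there, against 1003, 1106 and 1195 CPM of Klk13 in S1pr2fl/fl. Spink5 was lowest in the late-poor group of S1pr2fl/fl, at 244, 351 and 353 CPM, and its intervals overlapped across the groups of S1pr2fl/fl K14-Cre, at 118, 100 and 143 CPM in S1pr2fl/fl K14-Cre. In the late-rich groups alone, the level of Klk5 was 444 against 47.5 CPM, a log2 difference of -3.22 (-4.87 to -1.96). That of Klk8 was 584 against 57.0 CPM, a log2 difference of -3.36 (-4.83 to -2.20). The S1pr2fl/fl K14-Cre levels rest on 5 and 6 UMIs. Spots were ranked within each section, so the late-rich groups of the 2 sections were not matched for differentiation.

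**Figure D4:**
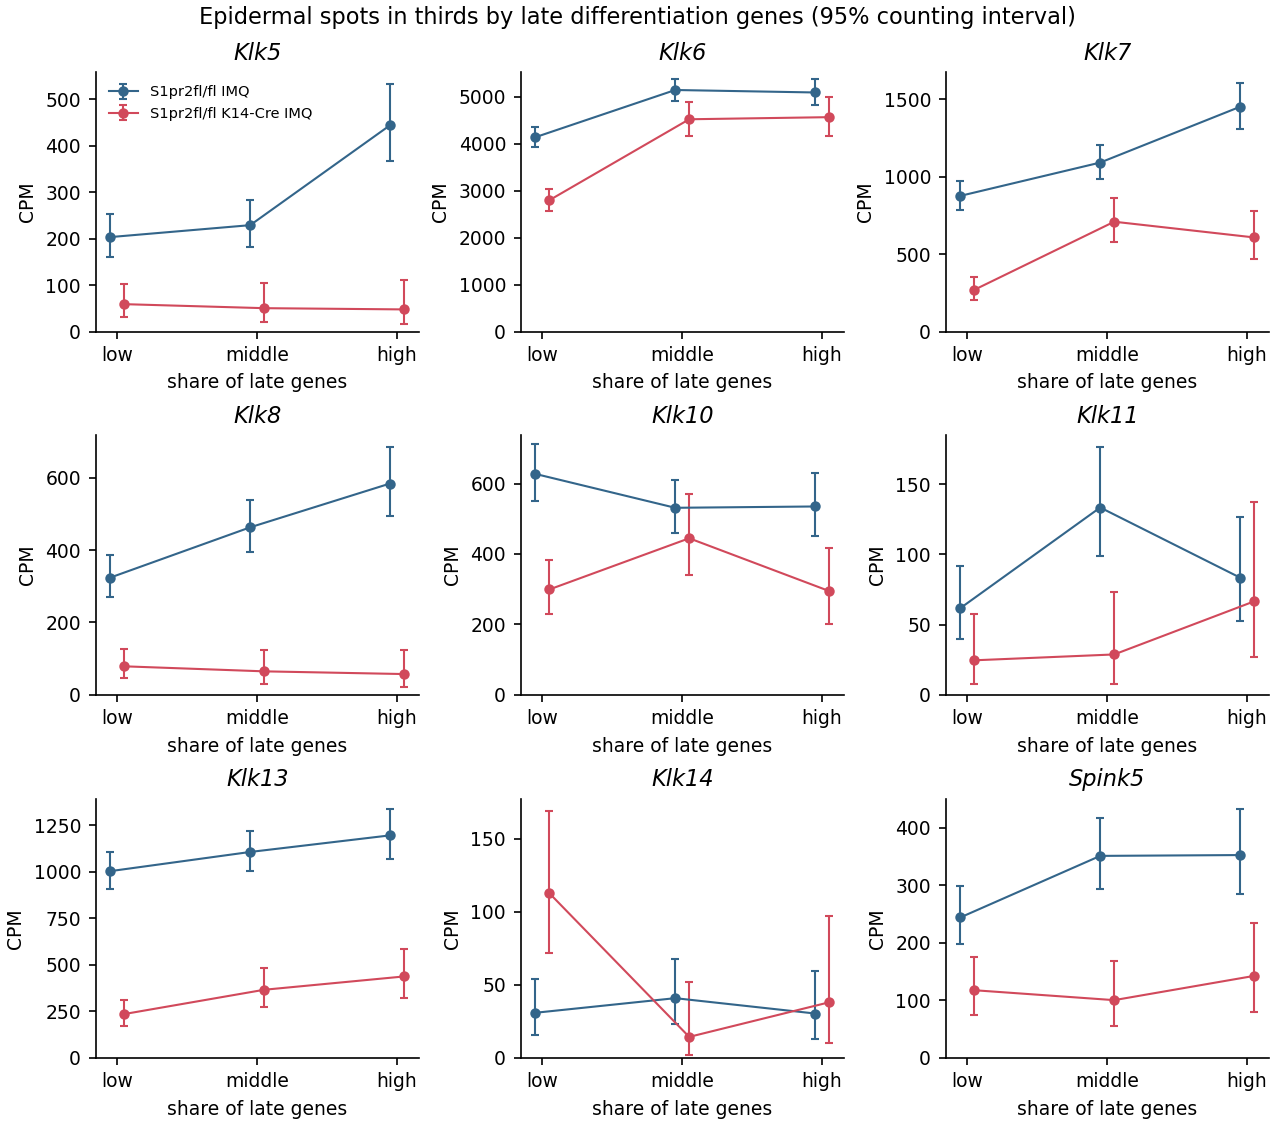
CPM of each member in epidermal spots grouped by the share of late differentiation genes (low, middle, high), for S1pr2fl/fl and S1pr2fl/fl K14-Cre, with 95% counting intervals. Klk5, Klk7, Klk8, Klk13 and, by little, Spink5 are highest in the high group of S1pr2fl/fl. Klk5 and Klk8 stay below 80 CPM in all 3 groups of S1pr2fl/fl K14-Cre.

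Depth per spot differed between the sections, so the share of epidermal spots with at least 1 UMI was also taken after thinning each spot to 1000 UMIs, which left out 34 and 17 shallower spots. Klk5 was then found in 23.3% of 176 spots in S1pr2fl/fl and 4.65% of 129 in S1pr2fl/fl K14-Cre (52.4% and 10.3% unthinned). Klk8 was found in 29.5% and 3.88% (60.5% and 13.0% unthinned), and Spink5 in 26.7% and 5.43% (56.2% and 19.2% unthinned). Klk6 stayed near saturation, in 97.2% and 89.9% of spots. Muscle spots, which should lack these genes, gave 3.80% and 2.42% for Klk8 and 48.4% and 13.5% for Klk6, at medians of 3519 and 2468 UMIs per spot before thinning. The Klk8 share in the S1pr2fl/fl K14-Cre epidermal spots (Clopper-Pearson interval 1.27% to 8.81%) was therefore not separable from its muscle background at this depth. For Klk5 the muscle shares were 3.80% and 0 of 289 spots. The latter allows a share of up to 1.04% when bounded by 3 counts and up to 1.27% by the Clopper-Pearson interval.

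Chemosensory receptor genes, which skin should hardly express, gave a measure of stray counts. They made up 1294 CPM of the S1pr2fl/fl epidermal spots and 9161 CPM of the S1pr2fl/fl K14-Cre ones, a mean of 1.08 and 3.35 UMIs per receptor gene with a highest value of 25 and 48. In S1pr2fl/fl every member exceeded all 1226 receptor genes. In S1pr2fl/fl K14-Cre Klk5 was reached by 2 receptor genes, Klk8 and Klk14 by 1 each and Klk11 by 7, so these 4 low members stand close to the upper end of the background there. Spink5, the denominator of the balance below, exceeded them all but by little, with 53 UMIs against 48 of the highest receptor gene.

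Klk6 made up more of the kallikrein mixture in S1pr2fl/fl K14-Cre. Klk6 gave 56.8% of the kallikrein UMIs in the epidermal spots of S1pr2fl/fl and 73.1% in those of S1pr2fl/fl K14-Cre. Klk13 went from 13.1% to 6.31%, Klk7 from 13.2% to 9.49%, Klk8 from 5.29% to 1.35% and Klk5 from 3.29% to 1.04%. Klk10 held its share, at 6.81% and 6.70%. Klk14 contributed 0.411% and 1.26%, and at 2 steps from the epidermal spots 2.83% and 12.8%. These shares do not depend on how the sections were scaled.

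The third question was the balance of protease to inhibitor transcripts, given as kallikrein UMIs per Spink5 UMI of the same spots. The ratio has no absolute meaning between genes, and only its change between regions or sections is read. In epidermal spots it was 26.9 (24.0 to 30.1) in S1pr2fl/fl and 43.3 (33.0 to 58.0) in S1pr2fl/fl K14-Cre, a fold of 1.61 (1.20 to 2.21). The segments gave 34.2, 34.1, 28.7 and 21.5 in S1pr2fl/fl and 49.3, 48.0, 70.0 and 34.1 in S1pr2fl/fl K14-Cre. The lowest S1pr2fl/fl K14-Cre segment fell within the S1pr2fl/fl range. At 1, 2, 3 to 4 and 5 or more steps the ratios were 23.1, 21.7, 29.1 and 34.3 in S1pr2fl/fl and 69.6, 42.9, 43.0 and 55.0 in S1pr2fl/fl K14-Cre, with folds of 3.01 (1.74 to 5.64), 1.98 (1.18 to 3.50), 1.48 (0.735 to 3.36) and 1.61 (0.582 to 6.18).

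The difference in epidermal balance rested on Klk6. Without it, the 7 other kallikreins gave 11.6 UMIs per Spink5 UMI in the epidermal spots of both sections, a fold of 1.00 (0.738 to 1.39). The 3 proteases that LEKTI fragments are best known to inhibit, Klk5, Klk7 and Klk14, gave 4.54 and 5.11, a fold of 1.13 (0.813 to 1.58). Gene by gene, the fold against Spink5 was 2.08 (1.54 to 2.85) for Klk6, 1.59 (1.12 to 2.28) for Klk10 and 4.96 (2.67 to 9.10) for Klk14. It was 0.412 (0.250 to 0.671) for Klk8, and 0.513, 0.781, 1.01 and 1.16 for Klk5, Klk13, Klk11 and Klk7. Spink5 thus stood between Klk6 and Klk10 on one side and Klk5 and Klk8 on the other. Without Klk6, the fold outside the epidermal spots was 1.87 (1.06 to 3.54) at 1 step, where S1pr2fl/fl K14-Cre had 14 Spink5 UMIs, and 1.72 (1.01 to 3.06) at 2 steps. At 3 to 4 steps it was 1.35 (0.661 to 3.12) and at 5 or more 1.44 (0.510 to 5.62), with intervals that include 1. Of the UMIs of these 7 kallikreins at 2 steps, Klk14 gave 63 of 979 in S1pr2fl/fl and 99 of 294 in S1pr2fl/fl K14-Cre. At 1 step it gave 88 of 1717 and 48 of 248.

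**Figure D5:**
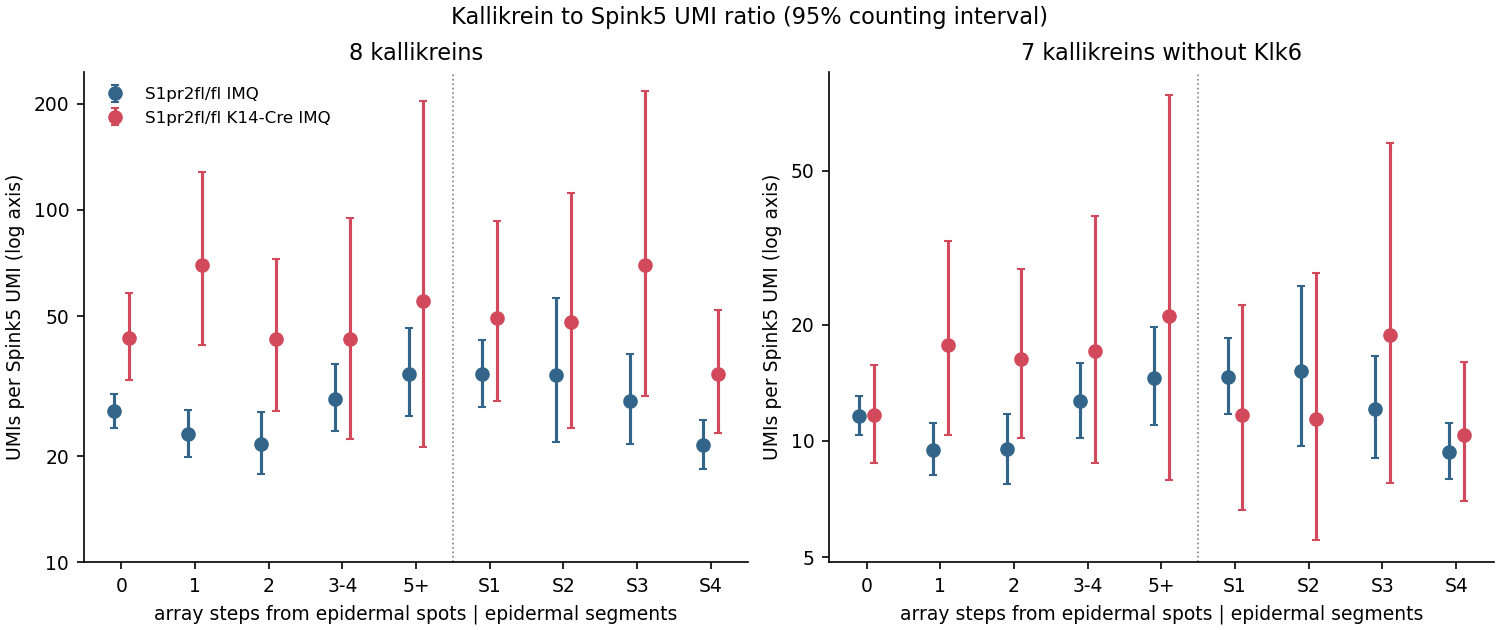
Kallikrein UMIs per Spink5 UMI (log axis) by array steps from the epidermal spots and, right of the dotted line, in the 4 epidermal segments, with 95% counting intervals. With all 8 kallikreins (left) the S1pr2fl/fl K14-Cre values lie above the S1pr2fl/fl ones in each band, and without Klk6 (right) the epidermal values coincide at 11.6.

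Other genes of the shedding pathway were read by the same rule. Of the substrates, all 5 with enough UMIs were at least 2-fold lower in the S1pr2fl/fl K14-Cre epidermal spots, as were 13.2% of all genes: the corneodesmosin gene Cdsn (log2 difference of -2.01), the desmosomal cadherins Dsg1a, Dsg1b and Dsc1 (-1.48, -1.28 and -1.14) and Flg (-3.80), which encodes filaggrin. Per UMI of the late list, Cdsn (-0.57) and Flg (-2.37) remained lower, Dsg1a stood at -0.04, and Dsg1b and Dsc1 turned to 0.15 and 0.30. Of 3 activators, Prss8, the membrane protease prostasin, was lower, at 100.03 against 22.3 CPM (-2.17, and -0.73 per late UMI). Its S1pr2fl/fl K14-Cre level rests on 10 UMIs. St14 and Tmprss13 differed by less than 2-fold, but stood at 1.71 and 1.68 per late UMI. Of 5 other inhibitors, Serpina12 was lower (-1.21, but 0.23 per late UMI). Slpi, a secreted inhibitor of leukocyte proteases, was higher (1.27, and 2.71 per late UMI). Spint1, Spint2 and Spink12 lay between, and stood at 1.15, 0.91 and 2.30 per late UMI. Of 5 other epidermal proteases, Asprv1 and Casp14, both tied to filaggrin processing, were lower (-1.48 and -1.23, but -0.049 and 0.21 per late UMI). Ctsc was higher (1.13, and 2.57 per late UMI). Ctsd and Ctsl lay between, and stood at 1.28 and 1.77 per late UMI. Of the 14 other tissue kallikreins 2 had enough UMIs, Klk9 at 633 against 279 CPM (-1.18, but 0.25 per late UMI) and Klk12 at 24.5 against 35.7 CPM (0.54, interval -0.46 to 1.50, and 1.98 per late UMI). Klk9 lies between members on chromosome 7. The remaining tissue kallikreins, among them the glandular Klk1 group, stayed under 20 UMIs each.

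Genes were last ranked by how closely their levels followed the members over 40 regions, the depth bands within each segment of both sections. The summed kallikreins went most closely with Krt14 (Pearson r = 0.973), Krtdap (0.972), Krt17 (0.970), Fabp5 (0.969) and Jup (0.968). Spink5 went most closely with Dmkn (0.923), Dsp (0.922), Ide (0.922), Serpinb5 (0.917) and Pla2g2f (0.916). The regions share 2 libraries and their depth, so these are descriptions. Among the members, Klk14 correlated with the other members at 0.0877 to 0.560, while those correlated among themselves at 0.650 to 0.912.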

How the data were processed

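Visium CytAssist libraries (11 mm capture area) of 10 µm sections of fixed mouse skin were analysed, 1 section per genotype. The deposited matrices hold unnormalized UMI counts, which Space Ranger 3.0.0 (per the file headers) had assigned to probes and spots, with mm10 as the build in the submitters' processing notes. The authors name Partek Flow for their own spatial analysis, of which no value was used here. Of the spot barcodes, 357 were shared by both sections, which are position codes of the array and not shared cells.

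Spots with at least 50 UMIs were clustered per section (scanpy 1.11.5, 2000 variable genes, 20 components, 15 neighbours, unweighted graph, Leiden resolution 1, leidenalg 0.10.2) without the members and pathway genes; 46 and 7 shallower spots were not clustered. Distance was counted in array steps to the nearest epidermal spot. UMIs were summed per region and given as CPM (UMIs per 1000000 UMIs of the region). Intervals (95%) are exact Poisson for levels, conditional binomial for ratios, Clopper-Pearson for shares and exact conditional odds ratios for the balance (scipy 1.17.1), and all cover counting error only. A share of 0 was bounded by 3 counts. Genes were called at 2-fold with at least 20 UMIs over both groups of spots compared. Between the sections these were the epidermal spots, and over depth the epidermal spots and those 3 or more steps away. All members and the genes of the pathway lists were named, and the 5 genes most like the sum and like Spink5. Alternatives were other epidermal regions, filters, thinning and scalings, among them a TMM factor from edgeR 4.0.16. Scripts were tested on simulated data. Members and lists were chosen with earlier results of these data known. Doublet removal does not apply to spots. Marker lists for late differentiation, basal, muscle, fibroblast, fat, hair, immune and sebaceous cells were used. In epidermal spots, fat markers stood at 159.9 and 332 CPM and hair markers at 20.6 and 69.1 CPM in S1pr2fl/fl and S1pr2fl/fl K14-Cre.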

Additional observations from a re-analysis of the deposited data

Results flagged for a closer look

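Klk14 differed in opposite directions between epidermal spots and spots 3 or more steps away in the 2 sections. This contrast leaves out the bands at 1 and 2 steps, where both sections had more Klk14 than in epidermal spots. In S1pr2fl/fl these bands had 89.7 and 82.4 CPM against 34.3 CPM in epidermal spots. The S1pr2fl/fl K14-Cre section had 131 and 284 CPM against 64.6 CPM. Epidermal spots differed from spots 3 or more steps away by -0.75 on the log2 scale in S1pr2fl/fl (interval -1.32 to -0.21; 35 and 147 UMIs) and by 1.52 in S1pr2fl/fl K14-Cre (0.77 to 2.25; 29 and 38 UMIs). The difference between the sections was not tested, since each genotype had 1 section. Leaving out segment 1 of S1pr2fl/fl turned its value to 0.76, and leaving out each other segment of that section gave values down to -1.45. In S1pr2fl/fl K14-Cre the values ran from 1.13 to 2.04 when each segment was left out in turn, and were 0.39 with the 2 uppermost spots of each image column in place of the epidermal spots and 0.54 by rank from the upper edge. The chemosensory receptor genes, the measure of stray counts, had the same directions over depth. They stood at -1.22 (-1.30 to -1.13) in S1pr2fl/fl and 0.87 (0.82 to 0.93) in S1pr2fl/fl K14-Cre. The part of stray counts in the Klk14 values was not tested.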

How the results depend on the processing

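The log2 difference of the summed kallikreins between the epidermal spots of the sections (-0.71) was -0.80 with Leiden resolution 0.5, -0.80 in the 2 uppermost spots of each column, -0.63 after thinning to 1000 UMIs, -1.49 with a TMM factor (which moved all genes by -0.79), -0.60 as a mean over spots, -1.15 over all spots, -0.58 per basal UMI, -0.91 and -0.62 in the late-poor and late-rich groups, and turned to 0.22 per keratinocyte marker UMI and 0.73 per late UMI. Leaving out 1 of 8 segments gave -0.77 to -0.54. With Klk6 left out of the sum, the difference relative to all UMIs was -1.39. Spink5 (-1.40) was -2.31 thinned (54 and 8 UMIs), -2.18 with TMM, -0.47 per keratinocyte marker UMI, -2.01 over all spots, 0.039 per late UMI and -1.62 to -1.07 without a segment. Per keratinocyte marker and per late UMI, Klk6 turned to 0.59 and 1.09 and Klk10 to 0.20 and 0.71; per late UMI Klk7 turned to 0.25 and Klk11 to 0.049. The log2 balance (0.69) was 1.67 thinned, 0.15 in the late-poor group, 0.17 for Klk5, Klk7 and Klk14, 0.0056 without Klk6 and 0.42 to 0.98 without a segment; the other 18 alternatives stayed within its counting interval. Over depth, the summed kallikreins in S1pr2fl/fl (2.31) were 2.14 with spots ranked by markers, 1.98 with the uppermost spots, 2.41 thinned, 2.00 by rank from the edge and 2.09 to 2.56 without a segment; in S1pr2fl/fl K14-Cre (3.83) they were 3.63, 3.62, 4.08, 3.67 and 3.52 to 4.21. Spink5 in S1pr2fl/fl was 2.13 to 2.75 without a segment, and in S1pr2fl/fl K14-Cre 2.97 thinned and 3.54 to 4.17 without a segment. Klk14 between the sections (0.91) was 0.096 in the uppermost spots, 0.13 with TMM, 1.84 per keratinocyte marker UMI, 2.35 per late UMI, 1.87 in the late-poor group and 0.28 to 1.24 without a segment. Klk14 over depth in S1pr2fl/fl turned to 0.069 as a mean over spots, and ran from -1.45 to 0.76 without a segment, the highest without segment 1. Scalings to the basal and late lists, also for the pathway genes, late-poor and late-rich groups, joined epidermal and 1-step spots and left-out segments were chosen after seeing the data. No paired analysis was possible because each genotype had 1 section. Depth limits Klk5, Klk8, Klk11 and Klk14 in S1pr2fl/fl K14-Cre, with 16 to 31 epidermal UMIs each. The cause of these shifts was not tested.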
